A study of Mus musculus with 2 samples.

Results

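The genes described here encode 40 enzymes that build cholesterol and fatty acids, and they were taken as every non-control probe whose gene name, or RefSeq record, is one of the listed symbols. They cover 6 stretches of the pathways: mevalonate to squalene, squalene to cholesterol, fatty acid synthesis, desaturation, elongation and the activation of fatty acids by acyl-CoA synthetases. Of the 27670 genes named on the array, 40 are these enzymes, read by 71 probes, and 38 of the 40 could be tested among 21893 genes. The RNA came from primary glia of C57BL/6J mice that received no treatment, and the stated aim was to find mRNAs enriched in oligodendrocytes. Oligodendrocytes were shaken off mixed glial cultures, and astrocytes were harvested later with trypsin, after microglia had also been shaken off. The mice's age, sex and number are not stated in the labels used here. Total RNA of both cell types was hybridised together on 2 two-colour Agilent arrays. Replicate 1 had the dye Cy5 on its oligodendrocyte RNA and Cy3 on its astrocyte RNA, and replicate 4 carried them the other way round. Every ratio below is the log2 ratio of oligodendrocyte over astrocyte, so a positive value means more signal in oligodendrocytes, and the number of arrays, 2, limits the precision of all of them. The sample labels do not tie the replicates to separate cultures, so the p-values speak of array-to-array spread, possibly of a technical kind, and not of variation between animals. That spread was largely pooled over all genes.

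Cholesterol is made from acetyl-CoA by way of mevalonate and squalene, and a run of further enzymes turns the cyclised product lanosterol into cholesterol. Fatty acids start from the same acetyl-CoA: fatty acid synthase makes palmitate, elongases and desaturases lengthen it and add double bonds, and acyl-CoA synthetases attach coenzyme A so that a fatty acid can enter lipids or be burnt. The brain makes its own cholesterol, since lipoproteins of the blood hardly cross its barrier, and myelinating oligodendrocytes need large amounts of cholesterol and of very long fatty acids for their membranes. Transcription factors of the SREBP family switch on many of these genes, SREBP-2 mainly those of sterol synthesis and SREBP-1c mainly those of fatty acid synthesis.

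The arrays separated the labelled cell types. All 9 tested oligodendrocyte markers were called higher in oligodendrocytes, with a median ratio of 3.98, and all 7 astrocyte markers higher in astrocytes, with a median of -3.12. Between 76.6% and 83.9% of gene probes were well above background in each channel, no gene spot was saturated, and over all tested genes the ratios of both arrays were correlated (Pearson 0.93, Spearman 0.811), a figure over genes that are no replicates of each other. A gene was called when limma's two-sided test gave a Benjamini-Hochberg adjusted p under 0.05 over all 21893 genes. Each array's ratios were centred on its genes by loess, so that the median ratio of all genes was -0.0040. When the ratios were instead set to the 10 spike-in probes, RNAs added from outside the cells, every ratio fell by 0.709, a shift that turns small positive ratios negative. This shift is the median of the 10 probes, which ranged from 0.477 to 0.785, so the sign of ratios in that range depends on the probe.

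Most sterol enzymes and 4 of 6 tested elongases were higher in oligodendrocytes, whereas Fads1, Fads2 and Fads3 were higher in astrocytes. Of the 38 tested members, 22 were called higher in oligodendrocytes (57.9%, against 18.5% of all genes tested) and 7 higher in astrocytes (18.4%, against 22.6% of all genes), while 9 were not called. In either direction 29 were called, beside 41.2% of all genes. Ratios set to the spike-in probes split the members 14 to 18 in place of 22 to 7, and median centring without loess split them 12 to 5. Over all tested genes these splits were 1300 to 18275 and 1085 to 1843, in place of 4061 to 4954. The median ratio of the members was 0.53, ranging from -2.46 for Acsl6 to 2.99 for Hsd17b7, beside a median of -0.0040 for all genes. With the spike-in scaling the members' median became -0.18, beside -0.71 for all genes. With loess the members' median was 0.61 on the array of replicate 1 and 0.57 on that of replicate 4. A total of 11 members were at least 2-fold higher in oligodendrocytes on both arrays, beside 5.1% of all genes, and 4 at least 2-fold higher in astrocytes, beside 7.34%. Each of the 38 tested members was well above background in all 4 channels, so none entered through only one of the cell types. The signs of both arrays agreed for 33 of them, and the other 5, Fdft1, Sqle, Nsdhl, Acaca and Acsl3, were not called. Elovl3, an elongase known from skin and brown fat, was not well above background in either cell type, and Acsbg2, a synthetase known from testis, was so only in astrocytes on 1 array, so neither was tested.

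**Figure D1:**
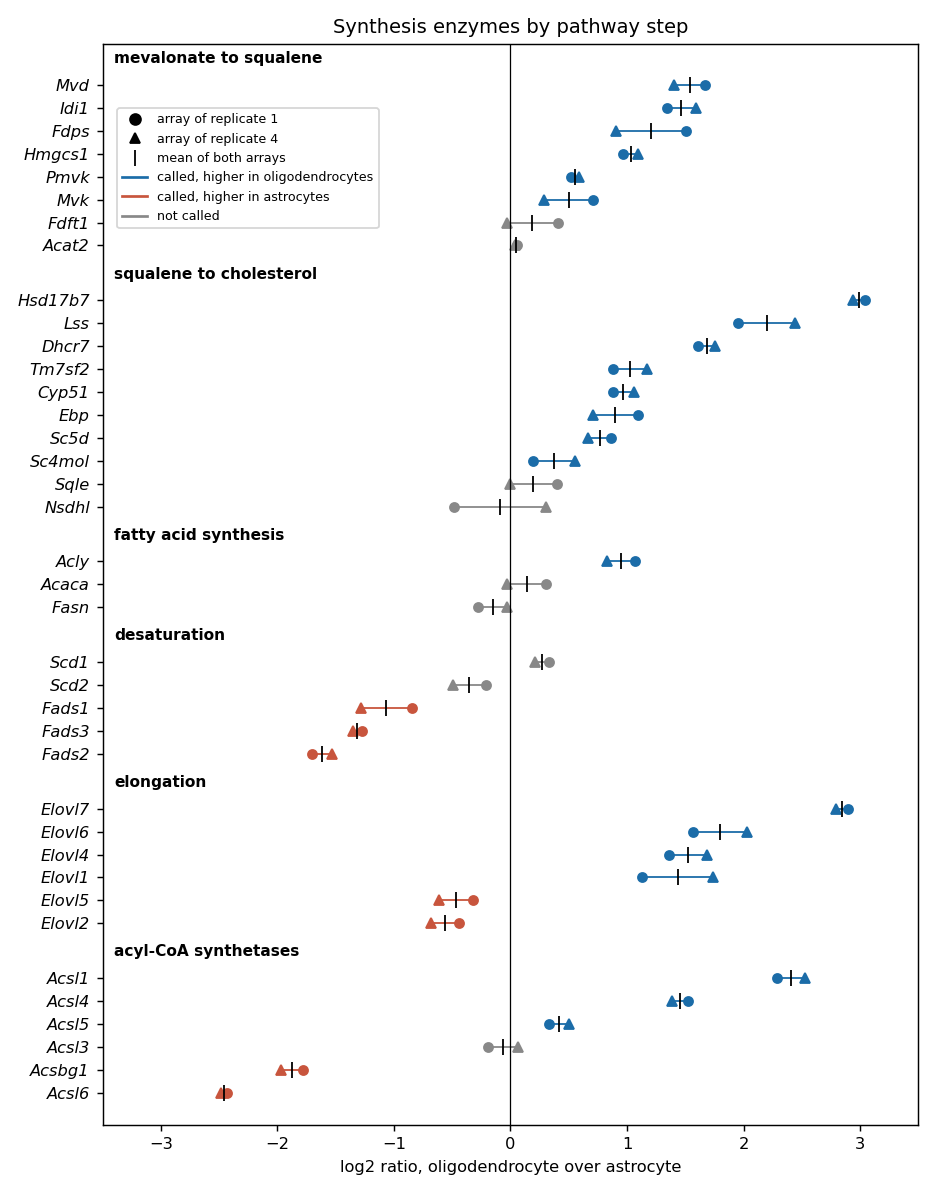
Log2 ratios of the 38 tested enzymes, oligodendrocyte over astrocyte, grouped by pathway step; circles are the array of replicate 1, triangles that of replicate 4, black ticks their mean, and colour gives the call. All called sterol members lie right of 0 on both arrays, from 0.38 for Sc4mol to 2.99 for Hsd17b7 (Mvk, Pmvk and Sc4mol fall below 0 with the spike-in scaling), while Fads1, Fads2, Fads3, Acsl6 and Acsbg1 lie at -1.06 or lower.

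Other cell types could also carry these enzymes, and their markers differed between the samples too. Microglia markers were called higher in oligodendrocytes for 9 of 10 genes, with a median ratio of 1.31 and a summed signal of 162000 to 202000 units in oligodendrocytes against 47100 to 50000 units in astrocytes. Fibroblast markers were called higher in oligodendrocytes for 5 of 6 genes, with sums of 60900 to 62500 against 12200 to 13600 units. Neuron markers were higher in oligodendrocytes for 5 of 7 genes and in astrocytes for 1, with sums of 19400 to 23200 against 4810 to 5050 units. Of 3 tested adipocyte markers only Fabp4, which macrophages also express, was called, with a ratio of 3.41, and the list summed to 9670 to 9800 against 1150 to 1170 units. Ependyma markers went the other way, with 5 of 5 tested genes called higher in astrocytes and sums of 9960 to 15200 units in oligodendrocytes against 118000 to 138000 units in astrocytes. No tested marker was below background in any channel, and the part of these cells in the enzyme ratios was not tested. In bulk RNA, fewer cells of a type and less of an mRNA per cell cannot be told apart.

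The first stretch leads from acetyl-CoA to squalene. Here 6 of 8 enzymes were called on the oligodendrocyte side (75%, beside 18.5% of all genes) and none on the other (beside 22.6%). The median ratio of the 8 enzymes, 0.79, fell to 0.083 with the spike-in scaling. Mvd, which decarboxylates mevalonate diphosphate, had the highest ratio of the stretch at 1.67 and 1.41 on the arrays of replicates 1 and 4, or 1.54 ± 0.18 (SD, n = 2; limma adjusted p = 6.27e-06), which is 2.90-fold. Idi1, the isopentenyl diphosphate isomerase, measured 1.34 and 1.59, a mean of 1.47 ± 0.18 (SD, n = 2; limma adjusted p = 8.55e-06). Fdps, which joins isoprenoid units into farnesyl diphosphate, measured 1.502 and 0.91, a mean of 1.20 ± 0.42 (SD, n = 2; limma adjusted p = 0.000135). Both arrays gave each of these 3 enzymes more signal in oligodendrocytes, but the arrays differed more for Fdps than for the other two. Hmgcs1, the cytosolic HMG-CoA synthase that opens the pathway, measured 0.97 and 1.09, a mean of 1.03 ± 0.091 (SD, n = 2; limma adjusted p = 7.56e-05), or 2.04-fold, and with median centring its ratio was 1.02 but no longer called (limma adjusted p = 0.0712). The kinases Mvk, at 0.50 ± 0.30, and Pmvk, at 0.55 ± 0.050 (SD, n = 2), were called with smaller ratios, and both lost the call with median centring and fell below 0 with the spike-in scaling. The enzymes not called stand at the ends of this stretch: Acat2, the cytosolic thiolase, had a ratio of 0.05 (limma adjusted p = 0.805) and Fdft1, squalene synthase, 0.40 and -0.03 (limma adjusted p = 0.35). The array design places the Idi1 probe on chromosome 2 of mm7, while the RefSeq table has the gene on chromosome 13, and it places the Hmgcs1 probe on an unplaced sequence, so whether these probes also read related copies was not examined.

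The second stretch, from squalene to cholesterol, held the enzyme with the highest ratio of all members. In total 8 of 10 enzymes were called on the oligodendrocyte side (80%, beside 18.5% of all genes) and none on the other (beside 22.6%). The median ratio was 0.93, or 1.91-fold, and 0.22 with the spike-in scaling. Hsd17b7, the 3-keto-sterol reductase of this stretch (probe at chr1:169928936-169928995 in mm7), had log2 signals of 13.5 and 13.2 in oligodendrocytes and of 10.5 and 10.3 in astrocytes. Its ratios were 3.05 and 2.94, a mean of 2.99 ± 0.072 (SD, n = 2; limma adjusted p = 9.47e-08), which is 7.97-fold and places it 80th of all tested genes from the oligodendrocyte side. Lss, lanosterol synthase, which closes the sterol rings (probe at chr10:76212419-76212478 in mm7), had log2 signals of 12.3 and 12.8 in oligodendrocytes and of 10.4 and 10.4 in astrocytes. Its ratios were 1.96 and 2.44, a mean of 2.20 ± 0.34 (SD, n = 2; limma adjusted p = 1.25e-06), or 4.59-fold. For both enzymes, each oligodendrocyte signal was higher than each astrocyte signal. Dhcr7, which makes cholesterol from 7-dehydrocholesterol (probe at chr7:140275628-140275687 in mm7), measured 1.61 and 1.76, a mean of 1.68 ± 0.10 (SD, n = 2; limma adjusted p = 2.54e-06).

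The other 7 enzymes of this stretch had lower ratios. Tm7sf2, a sterol C14 reductase, had a ratio of 1.03 ± 0.21, and Cyp51, the lanosterol demethylase, one of 0.97 ± 0.13 (SD, n = 2). Ebp, the sterol isomerase, had a ratio of 0.90 ± 0.27 and Sc5d, the C5 desaturase, one of 0.77 ± 0.14 (SD, n = 2). All 4 were called, with limma adjusted p-values from 0.000116 to 0.000651, and all 4 lost the call with median centring, as did Cyp51, Ebp and Sc5d with the spike-in scaling, at ratios that stayed positive. Sc4mol (now Msmo1), the C4 methyl oxidase, measured 0.20 and 0.55 (limma adjusted p = 0.0464), and its adjusted p ranged from 0.0262 to 0.89 over the other settings. Sqle, squalene epoxidase, which is known as a control point of the pathway, measured 0.40 and -0.004 (limma adjusted p = 0.304). Nsdhl, the C4 decarboxylase, measured -0.48 and 0.31 (limma adjusted p = 0.763), the widest spread between arrays of any member. Steps that neighbour each other in the pathway, such as Sqle and Lss or Nsdhl and Hsd17b7, thus had ratios of quite different size, and the difference between members was not tested.

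Of the 18 sterol members, 14 were called higher in oligodendrocytes (77.8%, beside 18.5% of all genes). Their promoters were therefore read for the letters of the factors known to drive them. RefSeq promoter windows of GRCm38.p6, from 250 bases before to 50 bases after each start, were matched by symbol for 32 of the 40 members. The pentamer CCAAT, bound by NF-Y, was found on either strand in 14 of 15 sterol members and in 11 of 17 fatty acid members, beside 42.4% of the tested genes and 41.1% of all genes. The sterol regulatory element TCACNCCAC was found in 2 of 32 members, Hmgcs1 and Acsl1, beside 1.41% of the tested genes and 1.44% of all genes. The E-box CACGTG was found in 5 of 32 members, beside 10.4% of the tested genes. The GC box GGGCGG was found in the same numbers of sterol and fatty acid members as CCAAT, 14 of 15 and 11 of 17, beside 59.5% of the tested genes and 38.2% of all genes. All 4 strings were searched on both strands, none of them contains another, and a match describes the sequence only. Among members with a window that were called higher in astrocytes, Fads3, Elovl5, Acsl6 and Acsbg1 had CCAAT, while Fads2 and Elovl2 did not. Of those called higher in oligodendrocytes, Elovl6, Elovl7 and Acsl4 had no CCAAT. The bases before the start are shown for Hsd17b7 and Lss, which had the highest sterol ratios, for Hmgcs1, which holds the regulatory element, and for Fads2, a desaturase higher in astrocytes, whose window has no CCAAT. They lie at chr1:169969243-169969455 (minus strand), chr10:76531355-76531564 (plus strand), chr13:119690101-119690350 (plus strand) and chr19:10101504-10101753 (minus strand) of GRCm38.p6, are written 5′ to 3′ along the gene, and stop before the transcribed bases. Capitals mark CCAAT or its complement ATTGG and, in Hmgcs1, TCACCCCAC.
Hsd17b7: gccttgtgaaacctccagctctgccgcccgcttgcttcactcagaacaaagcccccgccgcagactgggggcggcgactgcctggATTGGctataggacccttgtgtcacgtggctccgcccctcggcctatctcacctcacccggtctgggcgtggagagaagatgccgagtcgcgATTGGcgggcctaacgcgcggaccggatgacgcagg
Lss: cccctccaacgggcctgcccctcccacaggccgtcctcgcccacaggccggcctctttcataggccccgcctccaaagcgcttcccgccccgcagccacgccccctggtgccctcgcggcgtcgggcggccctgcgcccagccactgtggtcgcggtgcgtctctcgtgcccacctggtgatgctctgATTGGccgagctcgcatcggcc
Hmgcs1: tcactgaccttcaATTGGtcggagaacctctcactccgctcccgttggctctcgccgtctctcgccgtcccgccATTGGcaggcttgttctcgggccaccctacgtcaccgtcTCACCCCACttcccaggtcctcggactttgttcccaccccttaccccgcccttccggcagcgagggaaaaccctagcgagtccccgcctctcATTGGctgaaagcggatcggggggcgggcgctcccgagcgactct
Fads2: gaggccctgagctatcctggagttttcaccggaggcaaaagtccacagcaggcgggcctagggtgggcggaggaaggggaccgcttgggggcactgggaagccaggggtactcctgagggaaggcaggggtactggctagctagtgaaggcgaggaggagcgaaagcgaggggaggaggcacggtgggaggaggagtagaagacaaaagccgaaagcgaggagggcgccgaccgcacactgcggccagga
The stretch of Hmgcs1 holds 3 CCAAT matches and 1 regulatory element, at -137 to -129 from the start, that of Hsd17b7 holds 2 CCAAT matches and that of Lss 1. In Acsl1, the regulatory element lies on the reverse strand of another window, at -76 to -68.

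Of the 3 enzymes that make palmitate, 1 was called on the oligodendrocyte side (33.3%, beside 18.5% of all genes). None was called on the astrocyte side (beside 22.6%). The called enzyme is the one that supplies acetyl-CoA. Acly, ATP citrate lyase, measured 1.07 and 0.83, a mean of 0.95 ± 0.17 (SD, n = 2; limma adjusted p = 0.000173), or 1.93-fold, and it lost the call under both other scalings. Acaca, acetyl-CoA carboxylase, measured 0.31 and -0.03 (limma adjusted p = 0.479), and Fasn, fatty acid synthase, -0.28 and -0.03 (limma adjusted p = 0.406). The log2 signals of Fasn were 15.4 and 15.6 in oligodendrocytes and 15.7 and 15.7 in astrocytes, so the probe used was bright in both. Its other probe was dimmer, at 9.54 and 9.53 in oligodendrocytes and 9.70 and 9.70 in astrocytes. The median of the 3 was 0.14, or -0.57 with the spike-in scaling.

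Of 5 desaturases, 3 were called higher in astrocytes (60%, beside 22.6% of all genes), namely the members of the Fads family. Fads2, the delta-6 desaturase that opens this branch (probe between 9744385 and 9744815 on chromosome 19 of mm7), had log2 signals of 10.9 and 10.8 in oligodendrocytes and of 12.6 and 12.3 in astrocytes. Its ratios were -1.71 and -1.53, a mean of -1.62 ± 0.13 (SD, n = 2; limma adjusted p = 3.59e-06), or 3.07-fold higher in astrocytes. Fads3, a relative that acts on other substrates (probe at chr19:9738276-9738335 in mm7), measured -1.28 and -1.35, a mean of -1.31 ± 0.053 (SD, n = 2; limma adjusted p = 1.28e-05). Fads1, the delta-5 desaturase (probe at chr19:9876165-9876224 in mm7), measured -0.85 and -1.28, a mean of -1.06 ± 0.31 (SD, n = 2; limma adjusted p = 0.000158). On both arrays each of the 3 genes had more signal in astrocytes, and the calls stood in all 11 alternative settings with a test. Some of these settings, such as the filters, left the 3 ratios unchanged.

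Fads1, Fads2 and Fads3 are neighbours on chromosome 19 in the RefSeq gene order, and the gene on either side of them had the opposite sign. Rab3il1, next to Fads3, had a ratio of 1.17 ± 0.21 (SD, n = 2; limma adjusted p = 4.72e-05). Fen1, next to Fads1, had a ratio of 0.62 ± 0.37 (SD, n = 2; limma adjusted p = 0.00694), which became -0.0906 with the spike-in scaling and lost the call with median centring. Best1, the gene beyond Rab3il1, was called higher in astrocytes like the desaturases, with a ratio of -0.45 ± 0.092 (SD, n = 2; limma adjusted p = 0.0133). These neighbours were chosen for their position. The 3 desaturases are close relatives, and whether a probe also reads a relative was not examined. The stearoyl-CoA desaturases, which make monounsaturated fatty acids, were not called: Scd1 measured 0.33 and 0.21 (limma adjusted p = 0.11) and Scd2, the main form in brain, -0.21 and -0.50 (limma adjusted p = 0.0519). Scd2 was called higher in astrocytes with the scanner software's ratios (limma adjusted p = 0.0439) and with the spike-in scaling, and also where the probes of every gene were averaged (limma adjusted p = 0.0283), although Scd2 has 1 probe and its ratio was the same there. The log2 signals of Scd2 were 16.2 and 15.9 in oligodendrocytes and 16.4 and 16.4 in astrocytes. The median over all 5 desaturases was -1.06.

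Of the 6 tested elongases, 4 were called on the oligodendrocyte side (66.7%, beside 18.5% of all genes) and 2 on the astrocyte side (33.3%, beside 22.6%). Elovl7, Elovl6, Elovl4 and Elovl1 were called higher in oligodendrocytes, while Elovl2 and Elovl5, known for lengthening polyunsaturated fatty acids, were called higher in astrocytes. Elovl7, an elongase of saturated chains (probe at chr13:105412670-105412729 in mm7), had log2 signals of 13.9 and 13.8 in oligodendrocytes and of 11.01 and 10.98 in astrocytes. Its ratios were 2.89 and 2.79, a mean of 2.84 ± 0.071 (SD, n = 2; limma adjusted p = 1.07e-07), or 7.18-fold, and it ranked 95th of all tested genes from the oligodendrocyte side. Elovl6, which lengthens palmitate to stearate, measured 1.56 and 2.03, a mean of 1.80 ± 0.33 (SD, n = 2; limma adjusted p = 4.64e-06). These are the highest ratios among the 6 tested elongases, and each oligodendrocyte signal of either gene was above each of its astrocyte signals. Elovl4, which makes very long chains, polyunsaturated ones among them, measured 1.36 and 1.69, a mean of 1.52 ± 0.23 (SD, n = 2; limma adjusted p = 8.16e-06). Elovl1, which makes the very long saturated and monounsaturated chains of sphingolipids, measured 1.13 and 1.74, a mean of 1.44 ± 0.43 (SD, n = 2; limma adjusted p = 4.21e-05). All 4 were at least 2-fold higher in oligodendrocytes on both arrays. Elovl2 measured -0.44 and -0.68, a mean of -0.56 ± 0.17 (SD, n = 2; limma adjusted p = 0.00491), and Elovl5 -0.32 and -0.61, a mean of -0.47 ± 0.20 (SD, n = 2; limma adjusted p = 0.0148). Both lost the call with median centring, and Elovl5 also with the scanner software's own ratios. The median of the 6 tested elongases was 1.48, or 0.77 with the spike-in scaling.

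The acyl-CoA synthetases held large ratios in both directions. Acsl1, a long-chain synthetase (probe at chr8:45313747-45313806 in mm7), had log2 signals of 12.7 and 12.9 in oligodendrocytes and of 10.4 and 10.4 in astrocytes. Its ratios were 2.28 and 2.52, a mean of 2.40 ± 0.17 (SD, n = 2; limma adjusted p = 3.26e-07), or 5.29-fold. Acsl4, which prefers arachidonic acid, measured 1.52 and 1.39, a mean of 1.45 ± 0.093 (SD, n = 2; limma adjusted p = 6.82e-06). Both kept this direction and call in all 11 alternative settings with a test. Acsl6, a synthetase that favours docosahexaenoic acid (probe at chr11:54317906-54317965 in mm7), had the lowest ratio of all members, with log2 signals of 9.35 and 9.37 in oligodendrocytes and of 11.8 and 11.9 in astrocytes. Its ratios were -2.43 and -2.48, a mean of -2.46 ± 0.037 (SD, n = 2; limma adjusted p = 2.21e-07), or 5.48-fold higher in astrocytes. Acsbg1, known as bubblegum and named for its fly relative, measured -1.78 and -1.97, a mean of -1.87 ± 0.14 (SD, n = 2; limma adjusted p = 1.36e-06), or 3.67-fold higher in astrocytes. Both arrays placed these last synthetases higher in astrocytes. Acsl5 measured 0.33 and 0.50 (limma adjusted p = 0.021), and its mean of 0.41 became -0.29 with the spike-in scaling. Acsl3 measured -0.20 and 0.06 (limma adjusted p = 0.752). The median of the 6 tested synthetases was 0.17, and it became -0.54 with the spike-in scaling.

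In all, 20 members were read by several probes that passed the filter, which gives a second reading of the same RNA but not another sample. Among the 16 of them that were called, 15 had all probes on the same side of 0, the exception being Sc5d at 0.77 and -0.12. Of the 22 other probes of called members, 21 had the sign of the probe used, and 19 lay closer to 0 than it did. The other probe of Hsd17b7 read 2.90 and that of Elovl7 2.44, close to the probes used. Acsl1 read 1.52 and 1.47 with its other probes, below the 2.40 of the probe used. Probes lay more than 1 log2 unit apart for Lss, at 2.20, 1.26 and 0.90, and for Acsl6, at -2.46, -2.13, -1.79 and -0.90, the last of which was not well above background in oligodendrocytes on 1 array. The size of these ratios thus depended on the probe, while their direction did not. Fdft1, not called with the probe used, read 0.91 with its other probe and was called with the mean of both (limma adjusted p = 0.0016). Where in each transcript the probes lie was not examined.

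**Figure D2:**
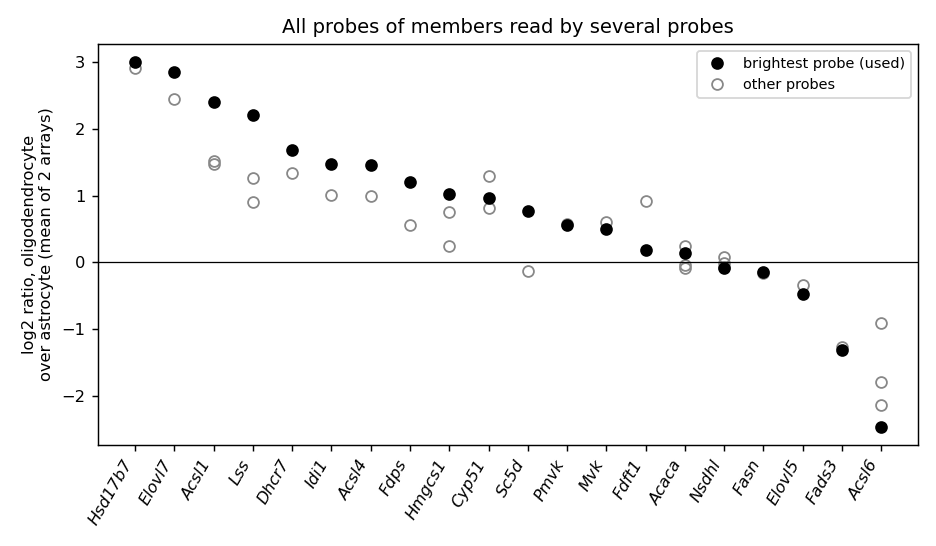
Mean log2 ratio over the 2 arrays for every passing probe of the 20 members read by several probes; filled circles are the brightest probe, which was used, and open circles the other probes. The other probes of Lss, at 1.26 and 0.90, lie below its used probe at 2.20, and those of Acsl6 rise from -2.13 to -0.90.

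Other genes of the same pathways were read from the same fit. Among 17 further enzymes, 5 were called on the oligodendrocyte side (29.4%, beside 18.5% of all genes) and 6 on the astrocyte side (35.3%, beside 22.6%), and the median ratio of 0.011 became -0.70 with the spike-in scaling. Acat1, the mitochondrial acetoacetyl-CoA thiolase, measured 0.97 and 1.11, a mean of 1.04 ± 0.094 (SD, n = 2; limma adjusted p = 7.09e-05), and it lost the call with median centring. Acacb, the mitochondrial acetyl-CoA carboxylase, whose product holds back fatty acid oxidation, measured -2.15 and -1.87, a mean of -2.01 ± 0.20 (SD, n = 2; limma adjusted p = 1.09e-06), or 4.03-fold higher in astrocytes. The enzymes that complete each round of elongation did not all follow the elongases, as seen once their values were known. Hsd17b12, the ketoacyl-CoA reductase, had a ratio of 0.81 and Tecr, the enoyl-CoA reductase, one of 0.70, which became 0.098 and -0.0083 with the spike-in scaling. The dehydratase Hacd2 measured -0.74 and -1.43, a mean of -1.08 ± 0.49 (SD, n = 2; limma adjusted p = 0.000436) while Hacd1, at 0.07, was not called. Hacd3 measured -0.21 and -1.24, a mean of -0.73 ± 0.73 (SD, n = 2; limma adjusted p = 0.017), so its size rested on the array of replicate 4. It lost the call with median centring, without background subtraction (limma adjusted p = 0.0543) and without the filter on dim probes (limma adjusted p = 0.0611). Hsd17b12 and Tecr lost theirs with median centring and with the spike-in scaling.

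Of 12 regulators of these pathways, 5 were called on the astrocyte side (41.7%, beside 22.6% of all genes) and 1 on the oligodendrocyte side (8.33%, beside 18.5%), and the median ratio was -0.32. Srebf1, which encodes SREBP-1, measured -2.15 and -1.85, a mean of -2.001 ± 0.22 (SD, n = 2; limma adjusted p = 1.19e-06). Mid1ip1, which promotes the assembly of acetyl-CoA carboxylase, measured -2.14 and -1.56, a mean of -1.85 ± 0.41 (SD, n = 2; limma adjusted p = 6.08e-06). Its relative Thrsp measured -1.46 and -1.69, a mean of -1.58 ± 0.17 (SD, n = 2; limma adjusted p = 4.87e-06). All 3 had more signal in astrocytes on both arrays. Srebf2, which encodes SREBP-2, measured -0.70 and 0.38 (limma adjusted p = 0.628), so its arrays disagreed in sign for the probe used. Its other probes had mean ratios of 0.030, -0.35 and -0.076. Insig1, a brake on SREBP processing, was the regulator called higher in oligodendrocytes, with 0.76 and 0.91, a mean of 0.84 ± 0.10 (SD, n = 2; limma adjusted p = 0.000326), and it lost the call under both other scalings. These values are mRNA ratios and hold no measure of SREBP protein or its processing. Among 7 tested synthetases of related families, 1 was called on the oligodendrocyte side (14.3%, beside 18.5% of all genes). On the astrocyte side 2 were called (28.6%, beside 22.6%), and the other 4 were not called. Acss1, the mitochondrial acetyl-CoA synthetase, had a ratio of -1.24 ± 0.014 and Slc27a3 one of -0.68 ± 0.29 (SD, n = 2). Slc27a4, a fatty acid transport protein, had a ratio of 1.03 ± 0.15 (SD, n = 2) with the probe used, while its other probe read 0.11. Slc27a4 and Slc27a3 lost their calls with median centring.

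**Figure D3:**
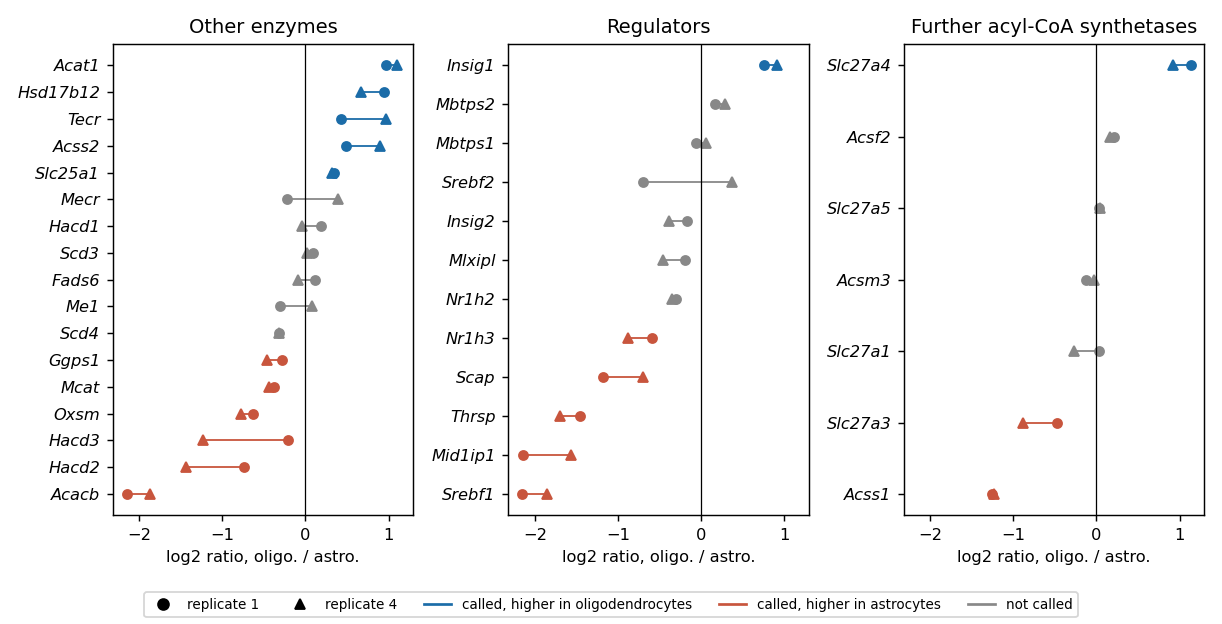
Log2 ratios on each array for further enzymes, regulators and related synthetases of the same pathways; circles are replicate 1, triangles replicate 4, lines join both arrays of a gene, and colour gives the call. Acat1 lies at 1.04, whereas Acacb, Srebf1, Mid1ip1 and Thrsp lie between -2.01 and -1.58.

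The place of the pathway arms against 0 moved with the scaling. The 18 sterol members had a median of 0.93 and the 20 tested fatty acid members one of 0.036. With the spike-in scaling these were 0.22 and -0.67, beside -0.71 for all genes. Of 29 called members, 17 kept direction and call in all 11 settings with a test: Mvd, Idi1, Fdps, Lss, Hsd17b7, Dhcr7, Elovl1, Elovl4, Elovl6, Elovl7, Fads1, Fads2, Fads3, Acsl1, Acsl4, Acsl6 and Acsbg1. Without the 2 other scalings, 27 of the 29 kept both, and the exceptions were Sc4mol and Elovl5. Among the 11 settings, the scanner software's ratios and the authors' value table hold the same values, so they are not separate checks. Which scaling is nearer to the amounts per cell cannot be told from these arrays.

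**Figure D4:**
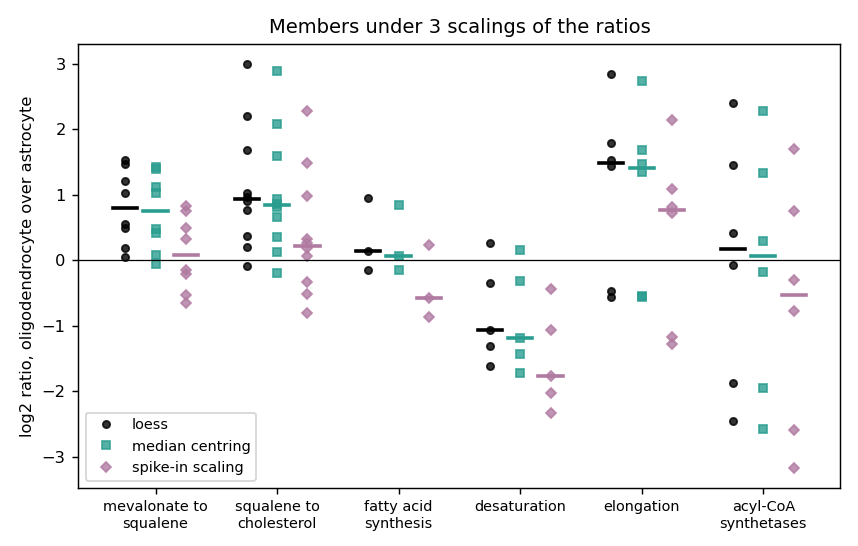
Log2 ratios of the members by pathway step under loess, median centring and spike-in scaling; each point is 1 gene and each bar a step's median. With the spike-in scaling the median falls from 0.79 to 0.083 for mevalonate to squalene and from 0.93 to 0.22 for squalene to cholesterol, and it turns from 0.14 to -0.57 for fatty acid synthesis and from 0.17 to -0.54 for the synthetases.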

How the data were processed

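Scanner intensities of 2 arrays, deposited by the authors as Agilent Feature Extraction 9.5.3.1 output per the file headers, were analysed here. The mean intensity of each channel was background-corrected (normexp, offset 50) and normalised within arrays by loess with control spots at weight 0. The log10 ratios deposited by the authors (Feature Extraction) and their value table, which holds the same log10 values, served as alternatives. Ratios were turned to oligodendrocyte over astrocyte by the dyes in the labels. A probe entered if both arrays had it well above background in at least 1 of the cell types, with no outlier mark, and the brightest probe stood for a gene. limma 3.58.1 in R 4.3.3 tested each ratio against 0, with 1 residual degree of freedom per gene and 8.48 prior degrees of freedom from all genes. The p-values thus rest mostly on a spread pooled over genes. The steps of limma were tested on simulated data. Probes were named through RefSeq accessions or symbols. Within each list, members called with the largest ratios, all called higher in astrocytes, members with discordant probes, and the 3 largest called ratios of each further list were described in full. The members, lists and rules were chosen with earlier results of these data known. The study states 3 independent samples per cell type, and other arrays were not analysed here. Results for some further genes are not reported here.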

Additional observations from a re-analysis of the deposited data

How the results depend on the processing

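The main fit called 22 members higher in oligodendrocytes and 7 higher in astrocytes. Under the alternatives other than scaling (background, offset, scanner software's ratios, filters, probe rule, prior), the totals were 21 to 23 and 7 or 8, not always the same members. Median centring gave 12 and 5, and spike-in scaling 14 and 18. At least 2-fold members numbered 14 and 14 higher in oligodendrocytes and 5 and 4 higher in astrocytes on single arrays, beside 11 and 4 on both arrays. Over all genes, median centring called 1085 and 1843 genes and spike-in scaling 1300 and 18275. With spike-in scaling the sign turned for Mvk at -0.21, Pmvk at -0.15, Fdft1 at -0.52, Sqle at -0.51, Sc4mol at -0.33, Acat2 at -0.66, Acaca at -0.57, Scd1 at -0.44, Acsl5 at -0.29, Tecr at -0.0083, Hacd1 at -0.63, Acss2 at -0.017, Slc25a1 at -0.38 and Fen1 at -0.0906. With median centring it turned for Acat2 at -0.0515 and Hacd1 at -0.038. Spike-in scaling lowers every ratio by 0.709, which by construction turns ratios below that size, and the cause of the change with median centring was not tested. A ratio on 2 arrays has 1 residual degree of freedom, and dim probes such as those of Elovl2 rest on the least signal over background.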
